A study of Mus musculus with 2 samples.

Results

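Molecular chaperones bind unfolded proteins and help them fold, assemble or reach the machinery that degrades them. The 87 rows described here are the heat shock protein, DNAJ and chaperonin genes of the mouse, chosen by symbol from the 25791 rows of the deposited table. They are the Dnaja, Dnajb and Dnajc genes, the Hspa, Hspb, Hspd, Hspe and Hsph genes, the Hsp90 genes, the chaperonin subunits Cct2 to Cct8 and Tcp1, the co-chaperones Bag1, Bag2 and Bag3, and Stip1 and Ahsa1. The rule uses symbols only. The RNA came from cultured mouse erythroblasts on a C57/bl6 background, the ESREs (Extensively Self Renewing Erythroblasts), which are red cell precursors able to divide for long in culture. One group was kept in expansion and the other was matured for 1 day. The series title names transgenic β-Yac mice as a source of ESREs, while the labels of these samples give no transgene, sex or age, and say nothing of whether a culture came from 1 or several animals.

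Each gene had 1 deposited value per group, in FPKM (fragments mapped to a transcript, scaled to its length and to the size of the library). The series text speaks of duplicates, but no separate duplicate values were used here. Every difference below therefore has no replicate check and comes with no error and no p-value, and the depth is unknown. A row counted as expressed when it reached 1 FPKM in at least 1 group. Ratios of maturation over expansion are given on the log2(FPKM + 1) scale, which understates the differences of low genes, and a fold printed beside a gene is one FPKM divided by the other. Every count of rows past a fold of 2 or 1.5 is taken on the log2(FPKM + 1) scale, so it can leave out a gene whose plain fold is larger. Over all 9263 expressed rows the median log2 ratio was -0.25 (the table median), so a chaperone ratio near -0.25 lies at the middle of the table. FPKM is relative to the whole RNA pool of a culture, and fewer cells of a kind cannot be told apart from less RNA per cell. The culture type was checked on markers, and 7 of 9 erythroid markers reached 1 FPKM in expansion and 9 of 9 in maturation. Of the macrophage markers 1 of 5 reached it in expansion (summed level 1.34 FPKM) and none in maturation (0.602 FPKM), with Mrc1 listed at 0 in expansion. Mast cell and basophil markers summed to 15.7 FPKM in expansion (3 of 5 at 1 FPKM or more) and 0.790 in maturation (none), with Cpa3 listed at 0 in maturation and Mcpt8 in both. Megakaryocyte markers summed to 13.2 FPKM (2 of 5) and 3.69 FPKM (1 of 5), with Pf4 listed at 0 in maturation. The part of these cells in the results below was not tested.

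Heat shock proteins are grouped by size and by how they work. HSP70 proteins bind short stretches of unfolded chain, J-domain proteins of the DNAJ (HSP40) family bring them their clients and trigger their ATP use, and nucleotide exchange factors of the HSP110 and BAG families release those clients. HSP90 acts on near-native clients such as kinases and steroid receptors. Chaperonins, the cytosolic ring CCT and the mitochondrial pair of HSP60 and HSP10, close a chain inside a chamber. Erythroblasts load their cytosol with hemoglobin, and in human erythroblasts HSP70 has been described as protecting GATA1 from caspase cleavage.

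Chaperones as a whole stayed close to the rest of the transcriptome between expansion and maturation. Of the 87 rows, 63 were expressed and 24 were not, and the filter split narrowly at Dnajc16 (1.05 and 0.748 FPKM), just inside, and Hspa13 (0.999 and 0.471 FPKM), just outside. Only 1 of the 63, Dnajb2, was at least 2-fold higher on the log2 scale, against 3.13% of all expressed rows. Dnajb2 passed the filter only through its maturation value. None was at least 2-fold lower, against 6.70% of all expressed rows. Among the 30 rows with at least 10 FPKM in a group none was beyond 2-fold either way on that scale, although the plain fold of Dnajc2 was 0.493, where 6.94% of all rows at that level were higher and 6.86% lower. At a fold of 1.5 on the log2(FPKM + 1) scale the counts were 2 higher (background 6.30%) and 6 lower (background 20.4%). The log2 ratio was below 0 for 47 of 63 rows, which is 74.6% beside 74.1% of all expressed rows. The median of the 63 was -0.23, and 34 of them lay above the table median. Among the 30 rows with at least 10 FPKM in a group, 22 lay below 0 (73.3%, against 64.9% of all rows at that level). Their median was -0.24, against -0.18 for all rows at that level. Of the 63, 53 had a log2 ratio within 0.5 of 0 (84.1%, against 66.7% of all expressed rows). All 87 rows together summed to 1748 FPKM in expansion and 1497 FPKM in maturation, which was 0.425% and 0.359% of the summed FPKM of the table. Small RNA rows held 17.6% of that table sum in expansion and 25.5% in maturation. Without them the chaperone share was 0.516% and 0.482%.

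**Figure D1:**
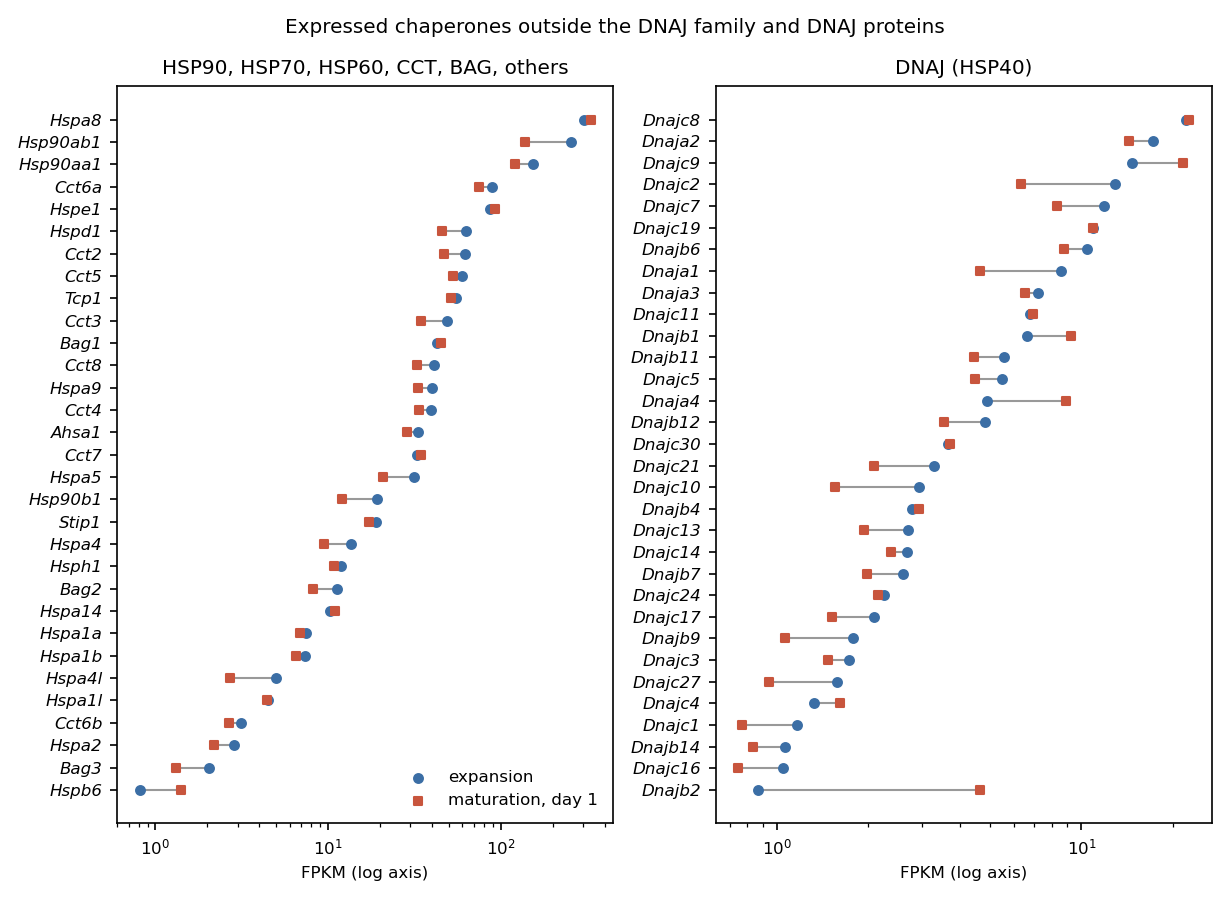
FPKM of every expressed chaperone row on a log axis, with expansion as circles and maturation day 1 as squares (1 deposited value each, no error available). Most pairs nearly touch, while Dnajb2 moves from 0.870 to 4.65 FPKM and Hsp90ab1 from 255 to 139 FPKM.

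The abundance order was dominated by a few cytosolic genes. Hspa8, the constitutive cytosolic HSP70 also called HSC70, was the most abundant chaperone row in both groups, with 304 FPKM in expansion against 332 after maturation (1.09-fold). It ranked 266th and 246th of all rows. Hsp90ab1, the constitutive cytosolic HSP90, followed with 255 FPKM in expansion against 139 after maturation (0.544-fold, log2 ratio -0.87), ranks 300 and 446. Hsp90aa1, its stress-responsive partner, was at 153 and 122 FPKM (0.795-fold). The level of Hspa8 was 1.19 times that of Hsp90ab1 in expansion and 2.39 times in maturation. With Cct6a and Hspe1, these genes were the 5 most abundant rows and held 50.8% of the summed chaperone FPKM in each group. Among the chaperone rows only Hspa8, Hsp90ab1 and Hsp90aa1 reached 100 FPKM in either group.

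**Figure D2:**
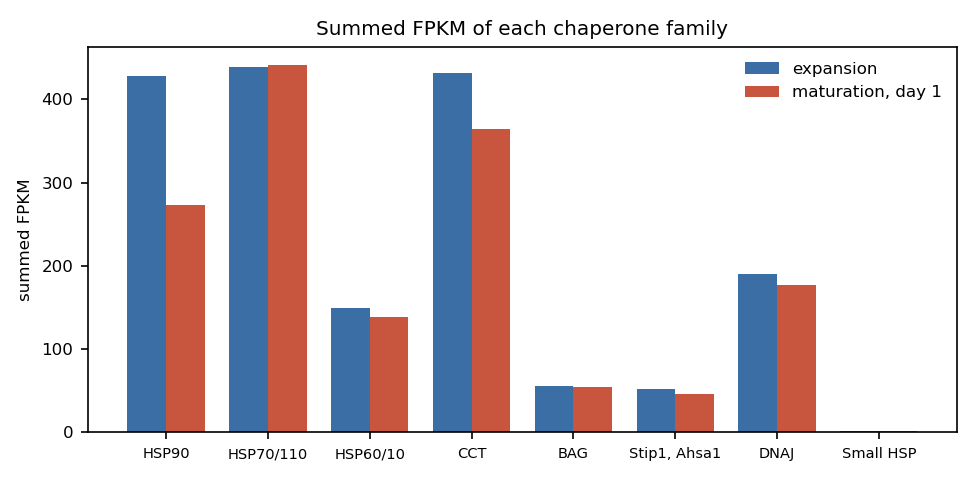
Summed FPKM of each chaperone family, with 1 bar per group and no error available. HSP90, HSP70 with HSP110 and CCT had nearly equal sums in expansion (428, 439 and 432 FPKM), and in maturation the HSP90 sum was 273 FPKM while the HSP70 sum was 441 FPKM.

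HSP90 was the family with the lowest ratio. All 3 genes had a log2 ratio below the table median, Hsp90aa1 only slightly (-0.33, percentile 41.2 of all expressed rows). Together the 3 genes had 428 FPKM in expansion against 273 after maturation, a ratio of 0.637. Rescaled by a constant, it was 0.756 relative to the median row and 0.629 at equal sums of all rows. At equal sums without small RNA rows it was 0.695. The median row is taken on the log2(FPKM + 1) scale, while the sums carry no pseudocount. Ratios of sums relative to it are therefore approximate, here and below. With a pseudocount of 0.1 the median of all expressed rows was -0.31, which would raise these ratios. Hsp90b1, the HSP90 of the endoplasmic reticulum (ER) also called GRP94, was at 19.3 and 12.02 FPKM (0.622-fold). Hsp90ab1 carried most of the family's difference, and the other HSP90 rows together had a ratio of 0.775. Within the cytosolic pair, Hsp90ab1 stood at 1.67 times Hsp90aa1 in expansion and 1.14 times in maturation. Of the 50-base words of the longest Hsp90aa1 coding transcript, 58.5% also occur in transcripts of other annotated genes, mainly Gm12346, so reads could be divided among them and its level is uncertain.

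The HSP70 sum was nearly equal in both groups, while most HSP70 genes had a ratio below 0. Of the 11 expressed rows 9 lay below 0 (background 74.1%) and 5 below the table median, with a median of -0.15. The 14 rows of HSP70 and HSP110 summed to 439 FPKM in expansion and 441 in maturation, a ratio of 1.004 (0.990 at equal sums of all rows and 1.19 relative to the median row). Hspa8 supplied most of that sum, and without it the ratio was 0.802, beside 0.775 for HSP90 without Hsp90ab1. Reads of Hspa8 can be ambiguous too, since 74.8% of its 50-base words occur in other annotated genes, led by Gm15459. The stress-inducible genes Hspa1a and Hspa1b, which are near-identical neighbours, were at 7.41 and 6.90 FPKM and at 7.33 and 6.53 FPKM. Hspa8 therefore stood 41.0 times above Hspa1a in expansion and 48.1 times in maturation. Of the words of Hspa1a 58.8% are also in Hspa1b, and reads may have been split between them. Hspa1l and Hspa2, best known from testis, were at 4.50 and 4.41 FPKM and at 2.85 and 2.20 FPKM, and 71.4% of the words of Hspa1l are in the overlapping Gm10501.

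The HSP110 genes, which release nucleotide from HSP70, were all slightly or moderately lower in maturation. Hspa4 was at 13.5 and 9.51 FPKM (0.703-fold), and its relative Hspa4l at 5.02 and 2.69 FPKM (0.536-fold, log2 ratio -0.71). Hsph1, the HSP110 most tied to the heat shock response, was at 11.8 and 10.8 FPKM. Its log2 ratio of -0.12 lay above the table median. Bag1, another exchange factor of HSP70, was among the more abundant co-chaperones and was nearly equal in both groups, at 43.1 and 45.2 FPKM. Bag2, an inhibitor of the ubiquitin ligase CHIP, was at 11.2 and 8.16 FPKM. Bag3, which links HSP70 to selective autophagy, was at 2.03 and 1.32 FPKM, so Bag1 exceeded it 21.2-fold in expansion and 34.3-fold in maturation. Stip1, the adaptor that hands clients from HSP70 to HSP90, was at 18.9 and 17.4 FPKM, and Ahsa1, an activator of the HSP90 ATPase, at 33.1 and 28.8 FPKM.

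**Figure D3:**
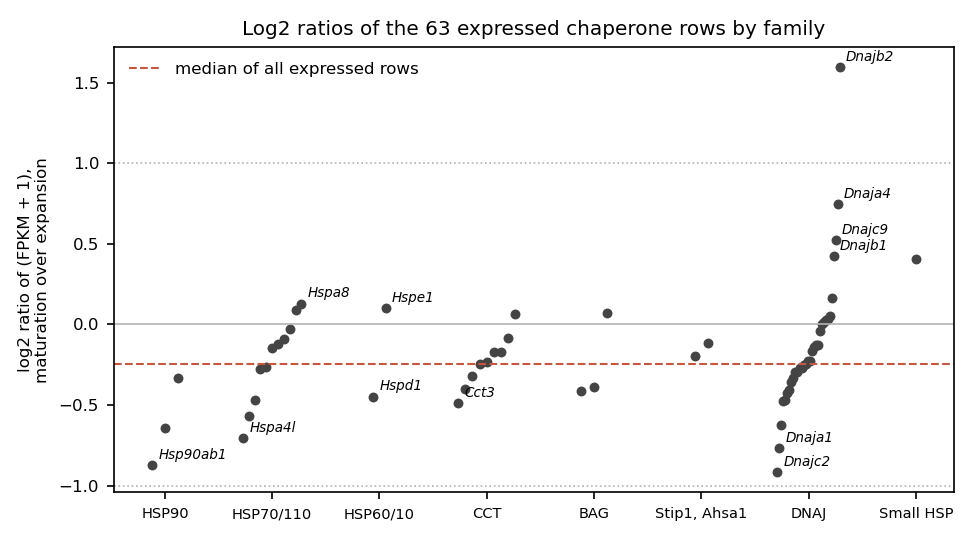
Log2 ratio of maturation over expansion (FPKM + 1) for each expressed chaperone row, 1 point per row, grouped by family. The dashed line is the table median (-0.25) and the dotted lines mark 2-fold. The 3 HSP90 points lie below the dashed line, and Dnajb2, at 1.60, is the only point beyond 2-fold.

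The ER group (Hsp90b1, Hspa5, Hspa13 and 9 DNAJ genes, assigned from general knowledge) had 12 rows, of which 11 were expressed. All 11 had a log2 ratio below 0, against 74.1% of all expressed rows, and 7 lay below the table median. None was beyond 2-fold on the log2(FPKM + 1) scale (background 3.13% higher and 6.70% lower), and the median of -0.29 was close to the table median. The ER rows summed to 74.6 FPKM in expansion and 50.2 FPKM in maturation, a ratio of 0.674, or 0.800 relative to the median row. Hspa5, the ER HSP70 also called BiP, was at 31.5 and 20.9 FPKM (0.665-fold). It supplied the largest share of the sum, followed by Hsp90b1. Dnajc10, an ER disulfide reductase with a J domain, was at 2.93 and 1.55 FPKM (0.528-fold). Dnajb9, which recruits BiP to misfolded clients, was at 1.78 and 1.07 FPKM. Dnajb11, the abundant soluble partner of BiP, was at 5.57 and 4.45 FPKM, and Dnajb12, an ER membrane J protein, at 4.82 and 3.53 FPKM. The remaining expressed ER rows, Dnajc1, Dnajc3, Dnajc14, Dnajc16 and Dnajb14, had log2 ratios from -0.29 to -0.12 and lay under 3 FPKM.

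A promoter element known from ER stress was found in 3 of the ER rows. The ER stress response element, searched on both strands as CCAAT, any 9 bases and CCACG in the 250 bases before each RefSeq start site (GRCm38.p6), was present in 35 of 27025 genes (0.130%). Of the 87 chaperone rows 72 had a promoter entry in the RefSeq table, and 3 of those held the element. The element is known from ER stress and was searched for after values were seen, so this count is no test of enrichment. They were Hspa5, Hsp90b1 and Dnajc3, an ER co-chaperone that restrains the eIF2alpha kinase PERK. The 3 windows are shown because they are the chaperone promoters with that element, in lower case with the element in capitals, 5′ to 3′ on the strand of the gene.
Hspa5 (chr2:34771840-34772089, plus strand): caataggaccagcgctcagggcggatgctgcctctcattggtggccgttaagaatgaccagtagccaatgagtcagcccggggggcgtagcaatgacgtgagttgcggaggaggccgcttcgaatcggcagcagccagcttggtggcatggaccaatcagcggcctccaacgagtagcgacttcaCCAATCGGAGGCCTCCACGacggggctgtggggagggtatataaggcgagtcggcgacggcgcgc
Hsp90b1 (chr10:86705445-86705694, minus strand): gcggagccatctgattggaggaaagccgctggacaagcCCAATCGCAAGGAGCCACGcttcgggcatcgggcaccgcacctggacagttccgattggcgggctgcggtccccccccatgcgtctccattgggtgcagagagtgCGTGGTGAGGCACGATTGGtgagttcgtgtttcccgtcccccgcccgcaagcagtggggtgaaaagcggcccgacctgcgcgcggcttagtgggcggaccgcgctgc
Dnajc3 (chr14:118937682-118937931, plus strand): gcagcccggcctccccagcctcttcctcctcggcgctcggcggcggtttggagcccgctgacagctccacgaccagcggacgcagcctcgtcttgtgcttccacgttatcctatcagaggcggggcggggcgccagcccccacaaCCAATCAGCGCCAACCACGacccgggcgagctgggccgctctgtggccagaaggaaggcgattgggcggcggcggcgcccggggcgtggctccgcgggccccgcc
Hsp90b1 held 2 copies and the others 1 copy each. In the Hspa5 window the element spans bases 65 to 47 before the start site, and its window holds 4 CCAAT boxes in all. Hspa5 and Hsp90b1 had log2 ratios of -0.57 and -0.64, and Dnajc3 was at 1.73 and 1.47 FPKM with a ratio of -0.14. A match is a description of these letters and not a measured binding site.

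Mitochondrial chaperones were nearer to equal levels. Of 8 mitochondrial rows 7 were expressed, 4 had a log2 ratio above 0 and 3 below, and the median was 0.0042. Of all expressed rows 74.1% were below 0. They summed to 218 FPKM in expansion and 200 FPKM in maturation, a ratio of 0.916 that turned to 1.09 relative to the median row and was 0.999 at equal sums without small RNA rows. Hspe1 (HSP10), the lid of the mitochondrial chaperonin, was at 86.6 and 92.9 FPKM, while Hspd1 (HSP60), its chamber, was at 63.1 and 46.0 FPKM (0.729-fold). The level of Hspe1 was 1.37 times that of Hspd1 in expansion and 2.02 times in maturation. Of their 50-base words 44.8% are found in other annotated genes for each of them, so both levels are uncertain. Hspa9, the mitochondrial HSP70 mortalin, was at 40.1 and 33.0 FPKM, and its J-domain partner Dnaja3 at 7.21 and 6.52 FPKM. Dnajc19, of the protein import motor, was at 10.88 and 10.92 FPKM. Dnajc11, of the inner membrane organising system, was at 6.77 and 6.93 FPKM and Dnajc30 at 3.66 and 3.70 FPKM. Dnajc15 was the unexpressed row, at 0.0448 and 0.0190 FPKM.

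**Figure D4:**
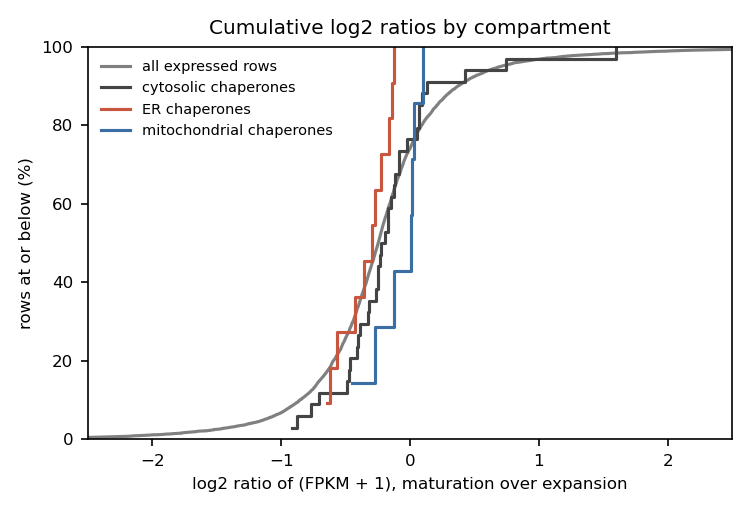
Cumulative share of rows at or below each log2 ratio (FPKM + 1, maturation over expansion) for 34 cytosolic, 11 ER and 7 mitochondrial chaperone rows, and for all 9263 expressed rows in grey. The ER curve reaches 100% at -0.12, and the mitochondrial curve lies to the right of the grey curve up to a ratio of 0. The x axis ends at 2.5 on either side of 0.

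Hspd1 and Hspe1 are neighbours transcribed in opposite directions. In the deposited mm9 loci Hspd1 spans 55134678 to 55144776 and Hspe1 55144992 to 55148161 on chromosome 1, with 215 bases between them. A RefSeq window of each gene holds heat shock cores, the palindromes GAANNTTC and TTCNNGAA, which are built from the repeat units bound by heat shock factors. Each palindrome reads the same on both strands. At least 1 core was found in the 250 bases before a start site in 17 of the 72 chaperone rows with an entry (23.6%) and in 3932 of 27025 genes (14.5%). The 2 palindromes differed, with GAANNTTC in 18.1% of those chaperone rows and 7.73% of genes. TTCNNGAA was in 9.72% and 8.11%. Enrichment was not tested. An Hspd1 entry also held 3 cores, and the windows of these neighbours can overlap, so the same letters may count for both genes. Hspe1 is shown as a window with overlapping cores, and Hspa1a as the stress-inducible HSP70 gene. Dnaja4 is shown because it had the highest log2 ratio among rows with a core. Each window has 150 bases, with cores in capitals.
Hspe1 (chr1:55087998-55088147, plus strand): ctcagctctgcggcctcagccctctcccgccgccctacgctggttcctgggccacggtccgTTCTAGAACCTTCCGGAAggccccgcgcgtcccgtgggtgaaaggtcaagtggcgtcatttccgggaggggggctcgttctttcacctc
Dnaja4 (chr9:54699409-54699558, plus strand): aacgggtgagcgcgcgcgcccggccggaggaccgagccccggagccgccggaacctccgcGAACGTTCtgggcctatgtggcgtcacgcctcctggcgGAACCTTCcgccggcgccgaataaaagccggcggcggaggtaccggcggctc
Hspa1a (chr17:34972157-34972306, minus strand): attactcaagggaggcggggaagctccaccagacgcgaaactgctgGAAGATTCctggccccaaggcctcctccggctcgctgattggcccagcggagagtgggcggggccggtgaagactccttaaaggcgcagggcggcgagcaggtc
The Hspe1 window holds 3 cores, which overlap in 1 run from base 89 to base 72 before the start site. The Dnaja4 window holds 2 cores, from base 90 and from base 52, and that of Hspa1a holds 1, from base 104. Another RefSeq entry of Dnaja4 held no core, and the entry with most cores is the one shown. A gene counted as holding a core when any of its entries did. Rows with a core did not stand on 1 side, as the 14 expressed ones had a median log2 ratio of -0.16, from -0.77 (Dnaja1) to 0.75 (Dnaja4). The 40 expressed rows with an entry and no core had a median of -0.24. For other promoter motifs, CCAAT was found in 38.9% of the chaperone rows with an entry and 37.5% of all genes, TATAAA in 6.94% and 14.3%, and the Gata1-type motif AGATAA in 4.17% and 11.4%, on either strand.

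The CCT ring is built from 8 different subunits, each present once per ring, and folds actin and tubulin among other clients. All 8 subunit genes were well expressed, with a median of 51.8 FPKM in expansion and 40.8 FPKM in maturation. Their summed FPKM was 428 and 362, a ratio of 0.844 that became 1.002 relative to the median row. The log2 ratio was below 0 for 7 of the 8 (background 74.1%), and 4 lay on either side of the table median. Of all rows with at least 10 FPKM in a group, 64.9% were below 0. Cct3 was lowest in ratio, at 48.8 and 34.5 FPKM (0.707-fold), followed by Cct2 at 62.4 and 47.0 FPKM and Cct8 at 41.3 and 32.9 FPKM. Cct4 was at 39.6 and 33.6 FPKM, Cct5 at 59.9 and 53.1 FPKM, and Tcp1, the alpha subunit, at 54.8 and 51.6 FPKM. Cct7 was the subunit above 0, at 32.8 and 34.4 FPKM. The order of levels was similar in both groups, with Cct6a highest at 88.8 and 74.6 FPKM.

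The standard deviation among the subunits was about the same, at 32.8% of their mean in expansion and 32.3% in maturation. The range was somewhat narrower in maturation. The highest subunit was 2.71 times the lowest in expansion and 2.27 times in maturation, and without Cct6a these figures were 1.90 and 1.61. The deposited locus of Cct6a spans only 1394 bases, against 10921 or more for each other ring subunit, so its modelled length and hence its FPKM may differ in kind from the rest. Cct6b, a paralog of Cct6a best known from testis, was at 3.15 and 2.68 FPKM, and Cct6a exceeded it 28.2-fold and 27.8-fold. Cct8l1 was not expressed, at 0.00487 and 0.0149 FPKM. The locus of Tcp1 also holds Acat3, and 21.9% of the words of its longest transcript are shared with that gene.

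DNAJ genes held the extremes in both directions. Of 45 rows 32 were expressed, with 22 log2 ratios below 0 and 10 above (74.1% of all expressed rows were below 0), and a median of -0.23. Together they had 190 FPKM in expansion against 177 after maturation, a ratio of 0.934 (1.11 relative to the median row). The HSP70 sum was 2.31 times the DNAJ sum in expansion and 2.49 times in maturation.

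Dnajb2 had the highest ratio of all chaperones. It encodes a J protein with ubiquitin-binding motifs that passes HSP70 clients to the proteasome, and is best known from neurons. It had 0.870 FPKM in expansion against 4.65 after maturation (5.35-fold, log2 ratio 1.60), at percentile 98.4 of all expressed rows. Its mm9 locus on chromosome 1 spans 75232998 to 75242267 and holds no other row. Dnajb2 was under 1 FPKM in expansion, so it entered the expressed set only through the group where it was high. The call rests on a low level, since with a pseudocount of 5 no chaperone row was at least 2-fold higher. Neither RefSeq promoter entry of Dnajb2 held a heat shock core, a CCAAT box or an AGATAA motif in its 250 bases.

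The class A genes Dnaja1 and Dnaja4 differed in order between the groups. These are close relatives that serve cytosolic HSP70 and carry a zinc-binding domain. Dnaja1 had 8.58 FPKM in expansion against 4.63 after maturation (0.540-fold), while Dnaja4 was at 4.89 and 8.89 FPKM (1.82-fold). Dnaja1 thus stood at 1.76 times Dnaja4 in expansion and 0.521 times in maturation. Dnaja2, the most abundant of the class, was at 17.2 and 14.3 FPKM. The Dnaja4 value is uncertain because 51.9% of the words of its longest coding transcript lie in Wdr61. The Dnaja1 value is uncertain too, since 28.8% of its words occur in other annotated genes, led by Gm15542. The deposited locus of Dnaja1 also holds Smu1 and Mir207. The class A genes together summed to 37.9 and 34.3 FPKM, a ratio of 0.907 (1.08 relative to the median row).

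Other class B genes were closer to equal. Dnajb1, the major heat-inducible J protein of the cytosol, was at 6.62 and 9.24 FPKM (1.39-fold). It stood 7.62 times above Dnajb2 in expansion and 1.99 times above it in maturation. Dnajb6, which limits protein aggregation, was at 10.4 and 8.78 FPKM, and Dnajb4 at 2.78 and 2.92 FPKM. Of the 50-base words of Dnajb6 42.8% occur in other annotated genes, led by Gm2541, so its level is uncertain. Dnajb7 was at 2.59 and 1.97 FPKM at a locus that also holds Xpnpep3.

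Class C genes share only the J domain and serve many separate tasks. Dnajc2, the ribosome-bound J protein also called MPP11, was lowest of all chaperones in log2 ratio, at 12.9 and 6.35 FPKM (0.493-fold, log2 ratio -0.92). Its plain fold passes 2, and with a pseudocount of 0.1 it was the 1 chaperone at least 2-fold lower. Hspa14, the HSP70 that pairs with Dnajc2 at the ribosome, was at 10.3 and 11.0 FPKM. The level of Hspa14 was 0.798 times that of Dnajc2 in expansion and 1.74 times in maturation. Dnajc21, a factor of ribosome assembly, was at 3.27 and 2.08 FPKM.

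Dnajc9, a histone chaperone with a J domain, went the other way, at 14.7 and 21.5 FPKM (1.47-fold, log2 ratio 0.52). Dnajc8, a splicing-associated protein, was the most abundant DNAJ row at 22.0 and 22.6 FPKM. Dnajc7, which binds both HSP70 and HSP90, was at 11.9 and 8.31 FPKM (0.698-fold). Dnajc5, a vesicle protein, was at 5.49 and 4.48 FPKM, and Dnajc13, of the endosome, at 2.70 and 1.93 FPKM. Dnajc24, of diphthamide synthesis, was at 2.24 and 2.15 FPKM. Dnajc4, at 1.33 and 1.61 FPKM, had the highest log2 ratio of class C after Dnajc9, at 0.16. Dnajc17 was at 2.09 and 1.52 FPKM and Dnajc27 at 1.57 and 0.940 FPKM.

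Small heat shock proteins, ATP-independent holdases that keep unfolded chains soluble, were nearly absent. Of 8 Hspb rows only Hspb6 was expressed, at 0.809 and 1.40 FPKM (1.73-fold). Hspb6 too passed the filter only through its maturation value. Hspb1 (HSP25) was at 0.00610 and 0.0267 FPKM, and Hspb3 and Hspb8 were listed at 0 in both groups. Hspb2 was listed at 0 in expansion and at 0.00678 FPKM in maturation. Hspb11, which is a transport protein of cilia despite its symbol, was at 0.846 and 0.448 FPKM. The unexpressed HSP70 rows were Hspa12a, Hspa12b and Hspa13. The 13 unexpressed DNAJ rows lay at 0.912 FPKM or lower in both groups, and Dnajc5g was listed at 0 in both.

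Genes around these chaperones, from 6 lists of 85 entries outside the symbol rule, were read the same way. Of 85 entries 76 were expressed, none was at least 2-fold higher (background 3.13%) and 5 were at least 2-fold lower (background 6.70%) on the log2(FPKM + 1) scale. Among 21 expressed co-chaperones of HSP90 and HSP70, 20 had a log2 ratio below 0 (background 74.1%), 14 lay below the table median, and the median was -0.34. Fkbp5, an HSP90 immunophilin that is also a glucocorticoid-induced gene, was at 9.38 and 3.91 FPKM, and St13, an HSP70-interacting protein, at 23.0 and 12.1 FPKM. Of the heat shock factors, Hsf1, the main activator of the heat shock response, was at 4.63 and 3.54 FPKM, and Hsf2 was under the filter at 0.680 and 0.388 FPKM. Hsbp1, a negative regulator of Hsf1, was at 10.3 and 5.99 FPKM.

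The ER folding list covers ER genes outside the symbol rule. Of its 21 expressed genes 19 had a log2 ratio below 0 (background 74.1%) and 17 lay below the table median. On the log2(FPKM + 1) scale 3 passed a fold of 2 on the lower side (background 6.70%), and the list median was -0.51. Ero1l, the oxidase that drives disulfide formation, was at 13.0 and 3.90 FPKM, and Calr, the lectin chaperone calreticulin, at 70.9 and 30.6 FPKM. Of the 14 expressed mitochondrial folding and quality control genes 1 lay beyond 2-fold on that scale, on the lower side (background 6.70%). The list median was -0.14. That gene was Hscb, the J protein of iron-sulfur cluster assembly, at 5.38 and 1.95 FPKM, and Trap1, the mitochondrial HSP90, was at 10.0006 and 5.99 FPKM. Of 16 expressed prefoldin subunits and CCT partners none was beyond 2-fold on that scale (background 3.13% higher and 6.70% lower). Their median was -0.18, with Pdrg1 at 12.7 and 7.15 FPKM and Pfdn2 at 19.3 and 12.3 FPKM. The nascent-chain factors Naca and Btf3 were at 131 and 111 FPKM and at 145 and 129 FPKM.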

How the data were processed

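RNA from 1 expansion and 1 maturation sample of mouse ESREs was sequenced. The labels' protocols name Qiagen RNeasy for extraction and a Bioo Scientific Nextflex library kit. The authors deposited 1 FPKM value for each gene and group. The submitters' processing notes list Cuffdiff 2.0.2 and mm9; aligner, annotation and treatment of the duplicates were not given in the sources used here. Columns were assigned to groups by name, as the authors' value for each group.

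With Python 3.11.15 and pandas 2.3.3, log2 ratios were computed with a pseudocount of 1, for rows with at least 1 FPKM in a group, and a fold of 2 on that scale was the threshold. Table starts count from 0 (182 of 385 microRNA rows span their RefSeq length that way, 0 counting from 1) and are printed from 1. RefSeq promoters are of GRCm38.p6, which has other coordinates than mm9. Shared 50-base words were counted over GENCODE M21 transcripts, on both strands. Named genes are the 12 most abundant members, those beyond 2-fold, the 10 highest and 10 lowest ratios, and all expressed members outside DNAJ. From each list the 2 expressed genes with the largest absolute log2 ratio are named, with Hsf1 and Hsf2. Other expressed DNAJ rows were added. The members, lists and compartments were chosen with earlier results of these data known, and the searches for the ER stress element and AGATAA after seeing values.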

Additional observations from a re-analysis of the deposited data

How the results depend on the processing

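These settings could not test the direction of Dnajb2, since a pseudocount keeps the sign and the rescalings are small beside its ratio. The count of rows at least 2-fold higher (1) was 0 with a pseudocount of 5, 0 with a minimum of 5 FPKM, which leaves Dnajb2 out, and 2 at a fold of 1.5, all on the log2 scale with the pseudocount. The count at least 2-fold lower (0) was 1 with a pseudocount of 0.1 (Dnajc2) and 6 at a fold of 1.5. The median log2 ratio (-0.23) was -0.25 with a pseudocount of 0.1, -0.12 with 5, -0.16 with no filter, 0.019 after centring on the median row, -0.26 at equal sums, -0.13 at equal sums without small RNA rows, and -0.25 without 19 rows of shared loci or words, chosen after seeing the data. Rows below 0 (47) numbered 29 of 40 at 5 FPKM and 29 of 63 after centring, which changed the sign of 18 rows. Centring the sums sets plain FPKM against a median of log2(FPKM + 1), so the centred ratios of sums are approximate. Ratios of summed FPKM after centring were 0.756 for HSP90, 1.19 for HSP70 with HSP110, 1.11 for DNAJ, 1.28 for small HSP, 1.10 for HSP60 with HSP10, 1.002 for CCT, 1.15 for BAG and 1.055 for Stip1 with Ahsa1. At equal sums they were 0.629 for HSP90, 0.990 for HSP70 with HSP110, 0.921 for DNAJ, 1.06 for small HSP, 0.916 for HSP60 with HSP10, 0.833 for CCT, 0.958 for BAG and 0.877 for Stip1 with Ahsa1. At equal sums without small RNA rows they were 0.695 for HSP90, 1.095 for HSP70 with HSP110, 1.02 for DNAJ, 1.17 for small HSP, 1.01 for HSP60 with HSP10, 0.921 for CCT, 1.06 for BAG and 0.969 for Stip1 with Ahsa1. Without each family's most abundant row, chosen after seeing the data, they were 0.775 for HSP90, 0.802 for HSP70 with HSP110, 0.921 for DNAJ, 0.562 for small HSP, 0.729 for HSP60 with HSP10, 0.846 for CCT, 0.716 for BAG and 0.920 for Stip1 with Ahsa1. No paired analysis was possible because each group has 1 value, and no replicate could be left out.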

Other observations

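Some chaperone loci hold other rows of the table, for 16 of the 87 rows. The Hspa8 locus also holds the small nucleolar RNA rows Snord14d, with 54.7 FPKM in expansion against 72.4 after maturation, and Snord14e, at 65.8 and 44.4 FPKM, and the row LOC624853 at 93.0 and 122.6 FPKM. The Dnajb14 locus holds H2afz, which encodes the histone variant H2A.Z, at 133 and 118 FPKM, beside 1.06 and 0.838 FPKM for Dnajb14 itself. The Dnajc19 locus holds Fxr1, at 9.08 and 6.85 FPKM, and the Dnajc28 locus Gart, an enzyme of purine synthesis, at 14.4 and 8.41 FPKM. Of the 63 expressed rows 26 shared no 50-base word with another annotated gene and 6 shared at least 50% of their words.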
